A study of Mus musculus with 8 samples.

Results

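A set of 10 marker genes of hepatic stellate cells and of the myofibroblasts that arise from them were followed in the liver of WT and Atp7b knockout (KO) mice: Lrat, Reln, Des, Pdgfra, Pdgfrb, Acta2, Tagln, Dcn, Lum and Bgn. These 10 genes were picked by symbol from a table of raw read counts for 54232 genes, and each was found and passed the filter on low counts. Lrat and Reln stand for the quiescent state and the other 8 for the activated state. Des, Pdgfra, Pdgfrb and Dcn also have RNA in quiescent stellate cells or in other liver fibroblasts, so the division is one of emphasis.

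The libraries were made from liver of mice 6 months old, 4 labelled WT and 4 labelled Atp7b KO. Atp7b encodes a copper pump of hepatocytes whose loss causes Wilson disease, and the study's title names bile acid physiology in that condition. Strain, sex, diet and the kind of Atp7b allele were not given in the labels. Whether each library came from its own mouse is not stated, so the p-values reflect the spread among libraries alone, which may be technical.

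Stellate cells lie between the hepatocytes and the sinusoidal endothelium, store retinyl esters in lipid droplets and, after injury, can turn into contractile, matrix-producing myofibroblasts. Platelet-derived growth factor (PDGF) is a classical signal for their growth and migration, and transforming growth factor beta for their matrix output. Portal fibroblasts, vascular smooth muscle cells and mesothelial cells share many of the same markers, and bulk RNA does not separate them.

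Total counts ran from 9880253 to 27530506 in WT and from 14583961 to 18423836 in KO. Levels are CPM (counts scaled to a common library size) on totals adjusted by TMM, which sets the bulk of genes level between libraries, and 3 counts equal 0.129 to 0.425 CPM depending on the library. Atp7b stood at 24.5 ± 10.1 CPM in WT (SD, n = 4) and 7.83 ± 1.19 CPM in KO (SD, n = 4), with WT replicate 3 at 9.63 CPM nearest to KO. On the log2 scale Atp7b changed by -1.65 ± 0.32 (SE; edgeR's quasi-likelihood test, adjusted p = 0.00312). That library also stood apart from the other WT libraries on the second principal component, so results are given with and without it where it moves them.

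The 10 markers leaned one way. All 10 had a higher fitted level in KO, although Lrat and Reln changed sign when single WT libraries were left out, and 4 passed the test as higher. These were Lum (4.89-fold), Pdgfra (2.63-fold), Tagln (1.92-fold) and Dcn (1.91-fold). At an adjusted p under 0.05, 30% of the 15811 genes tested were called in either direction, 17.6% as higher in KO and 12.5% as lower. Of the markers, 0 were called lower in edgeR's quasi-likelihood test, in DESeq2 or in limma-voom, and 0 were lower at an unadjusted p under 0.05. Neither quiescent marker was called. Without KO replicate 3, Tagln and Dcn lost their calls and 2 markers, Lum and Pdgfra, were called. In 4 markers (Pdgfra, Dcn, Lum and Bgn) every KO library lay above every WT library, a pattern seen in 18.7% of all genes tested, and 0 markers had the opposite pattern, seen in 13.4%. The median log2 fold change was 0.91 over the 10 markers and -0.05 over all genes tested. Without WT replicate 3 the median over the markers was 0.62, and 5 markers were called higher, Bgn being added, where, of 16423 genes tested, 26% were higher and 23.4% lower. In bulk liver RNA, more cells of a type and more RNA per cell cannot be told apart, nor can fewer cells and less RNA per cell.

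**Figure D1:**
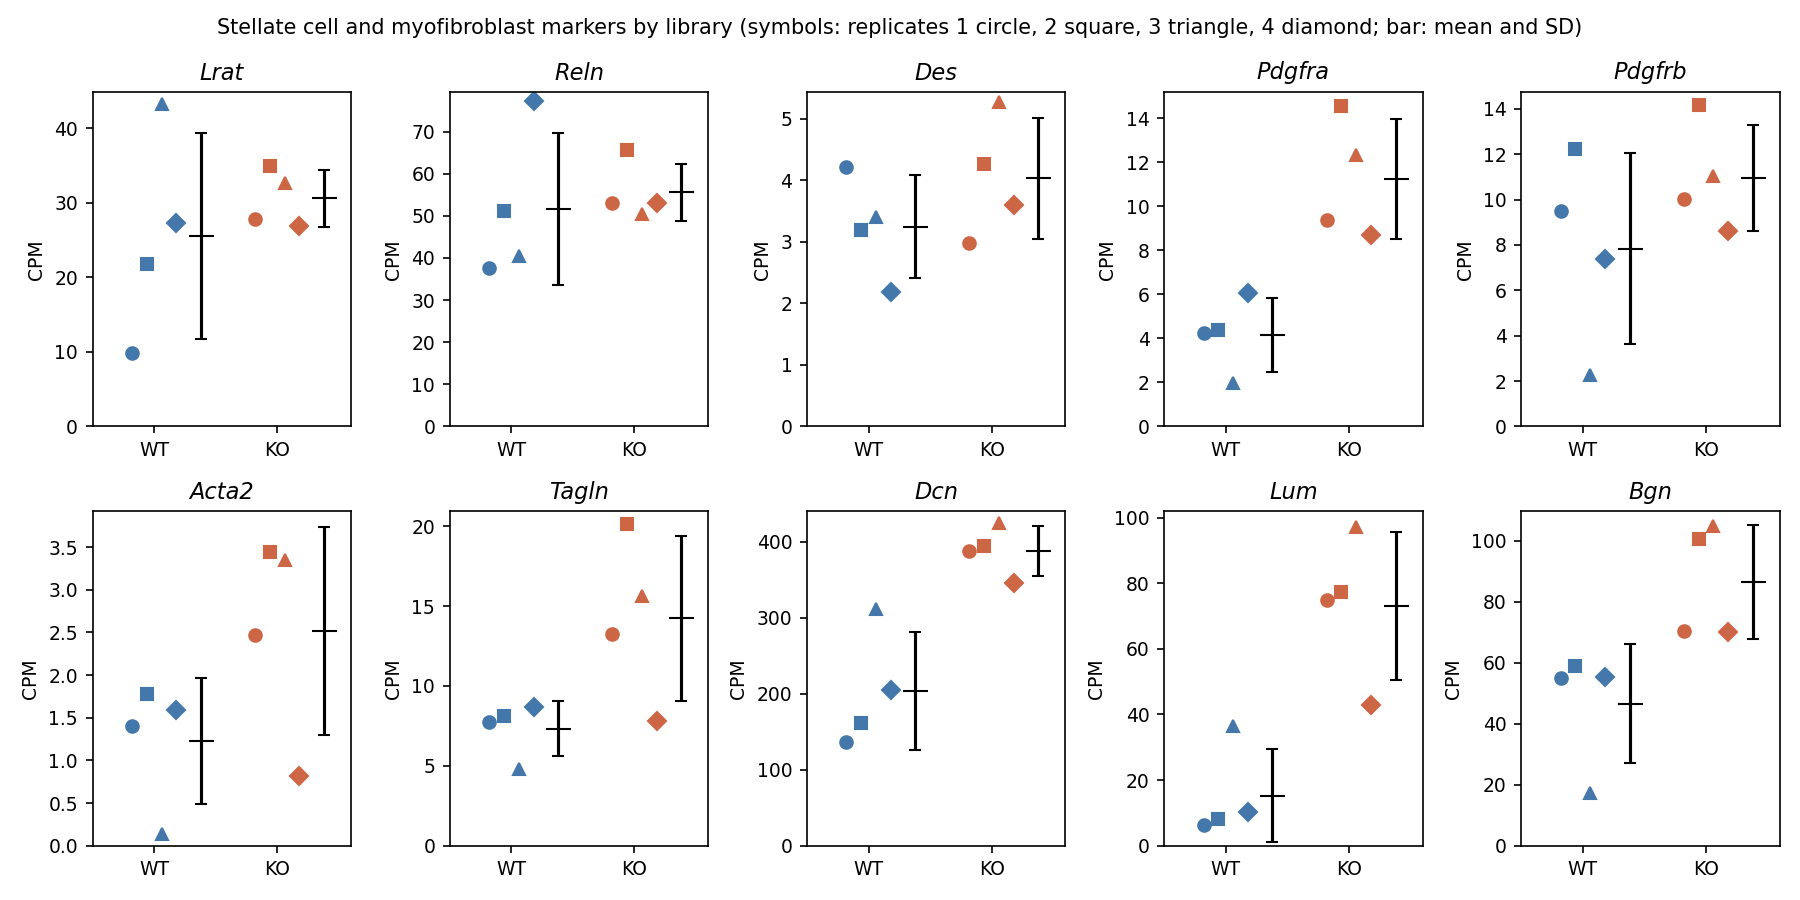
CPM of each marker (y axis, from 0, own scale per gene) in the 4 WT and 4 KO libraries; symbols are replicates 1 to 4, and the bar gives the mean and SD over 4 libraries. Pdgfra, Dcn, Lum and Bgn show no overlap between genotypes, while the KO points of Lrat, Reln, Des and Pdgfrb lie among or beside the WT points.

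Promoter sequences from RefSeq (build GRCm38.p6, 250 bases before to 50 after the start of transcription) were at hand for 6 of the 10 markers: Lrat, Reln, Des, Pdgfra, Acta2 and Bgn. Serum response factor, which drives many contractile genes, binds the CArG box, CC and GG around 6 bases of A or T. None of the 6 promoters held an exact CArG box, which was present in 1.63% of 32851 promoters in the table. A CArG-like box, which allows 1 of the 6 inner bases to be G or C, was present in 9.98% of those promoters, and in Acta2 and Lrat among the markers. Both motifs read the same on either strand, and every exact CArG box is also a CArG-like box. TATAA, searched on both strands, was present in 24.9% of the promoters. The 3 promoters printed here are those of the myofibroblast marker Acta2, the quiescence marker Lrat and the called receptor gene Pdgfra, read 5′ to 3′ on the gene's strand, with CArG-like boxes and TATAA in capitals.
Acta2, chr19:34255324-34255623, minus strand: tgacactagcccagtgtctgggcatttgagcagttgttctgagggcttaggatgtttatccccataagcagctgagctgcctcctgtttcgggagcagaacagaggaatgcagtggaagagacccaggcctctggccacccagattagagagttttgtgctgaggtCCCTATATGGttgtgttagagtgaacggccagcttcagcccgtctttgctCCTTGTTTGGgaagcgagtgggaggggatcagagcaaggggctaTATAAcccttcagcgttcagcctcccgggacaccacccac
Lrat, chr3:82903925-82904224, minus strand: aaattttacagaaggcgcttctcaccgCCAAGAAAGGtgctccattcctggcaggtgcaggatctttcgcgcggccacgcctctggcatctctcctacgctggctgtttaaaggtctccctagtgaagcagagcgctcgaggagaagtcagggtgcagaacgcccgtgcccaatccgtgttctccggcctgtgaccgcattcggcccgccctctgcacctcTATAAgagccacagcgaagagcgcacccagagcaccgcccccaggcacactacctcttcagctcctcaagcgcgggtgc
Pdgfra, chr5:75152001-75152300, plus strand: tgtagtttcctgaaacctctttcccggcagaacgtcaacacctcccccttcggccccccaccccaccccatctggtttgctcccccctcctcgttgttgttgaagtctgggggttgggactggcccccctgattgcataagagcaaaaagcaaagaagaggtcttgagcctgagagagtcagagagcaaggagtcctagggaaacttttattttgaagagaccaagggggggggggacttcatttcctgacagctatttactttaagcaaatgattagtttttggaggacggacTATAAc

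Counting the start as base 1, the CArG-like boxes of Acta2 lay at bases -84 to -75 (CCCTATATGG) and -34 to -25 (CCTTGTTTGG), and its TATAA at bases 11 to 15. In Lrat, the CArG-like box (CCAAGAAAGG) lay at -223 to -214 and TATAA at -29 to -25. In Pdgfra, TATAA lay at 45 to 49, and no CArG-like box was in the window. A match in these windows describes letters and not binding.

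Lrat, the lecithin retinol acyltransferase that makes the retinyl esters stellate cells store, was not called between genotypes. It lies on mm10 chromosome 3 (82892579 to 82903973, minus strand, ENSMUSG00000028003.6). Its levels in WT replicates 1 to 4 were 9.85, 21.8, 43.2 and 27.3 CPM, against 27.9, 34.96, 32.6 and 26.8 CPM in the KO libraries in the same order. The KO values fell inside the WT range, which was wide, with replicate 1 low and replicate 3 high. The means were 25.5 ± 13.8 and 30.6 ± 3.87 CPM (SD, n = 4 each), the log2 fold change was 0.27 ± 0.35 (SE) and the adjusted p was 0.609 in edgeR's quasi-likelihood test. Leaving out WT replicate 1 brought the log2 fold change to -0.011, and leaving out WT replicate 3 brought it to 0.61 (adjusted p = 0.066). Scaling by library totals only gave 0.77 (adjusted p = 0.0762, both in edgeR's quasi-likelihood test). Lrat was called in 0 of the 20 alternatives, and no direction is given for it.

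Reln, a secreted glycoprotein best known from the developing brain and made in liver by stellate cells, was also not called. It spans 21884454 to 22344702 on the minus strand of chromosome 5 (ENSMUSG00000042453.14). In WT replicates 1 to 4 Reln read 37.7, 51.2, 40.3 and 77.2 CPM, and in the KO libraries 53.0, 65.5, 50.5 and 53.1 CPM. The KO libraries were close to each other and inside the WT range, with WT replicate 4 the highest of all 8. The log2 fold change was 0.10 ± 0.23 (SE; adjusted p = 0.777 in edgeR's quasi-likelihood test). It turned to -0.034 without WT replicate 1 and to -0.016 without WT replicate 3.

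Des encodes desmin, the intermediate filament of muscle that also marks stellate cells in rodents. It lies on chromosome 1 (75360329 to 75368579, plus strand, ENSMUSG00000026208.9). Des read 4.22, 3.20, 3.40 and 2.19 CPM in WT replicates 1 to 4 and 2.98, 4.27, 5.28 and 3.60 CPM in KO replicates 1 to 4. The groups overlapped over most of their range, and KO replicate 3 was the highest library. Its log2 fold change was 0.33 ± 0.27 (SE), with adjusted p = 0.393 in edgeR's quasi-likelihood test.

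Of the paired PDGF receptors, Pdgfra rose and Pdgfrb was not called. Pdgfra, the alpha receptor, lies on chromosome 5 (75152292 to 75198215, plus strand, ENSMUSG00000029231.15) and read 4.22, 4.36, 1.98 and 6.05 CPM in WT replicates 1 to 4. KO replicates 1 to 4 gave 9.40, 14.6, 12.3 and 8.68 CPM. Every KO library stood above every WT library, with WT replicate 3 the lowest of all. The change was 2.63-fold (log2 1.39 ± 0.30 SE, adjusted p = 0.00559 in edgeR's quasi-likelihood test). Without WT replicate 3 the log2 fold change was 1.17, and Pdgfra was called under all 20 alternative settings run.

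Pdgfrb, the beta receptor and the usual pan-stellate and pericyte marker, lies on chromosome 18 (61045150 to 61085061, plus strand, ENSMUSG00000024620.11). It read 9.50, 12.2, 2.27 and 7.37 CPM in WT replicates 1 to 4 and 10.03, 14.1, 11.02 and 8.63 CPM in KO replicates 1 to 4. Replicate 3 was far below the other WT libraries, and the remaining WT libraries overlapped the KO range. Its log2 fold change was 0.46 ± 0.38 (SE; adjusted p = 0.405 in edgeR's quasi-likelihood test) and 0.17 without WT replicate 3.

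The balance between the receptors was also read within libraries. The log2 ratio of Pdgfra to Pdgfrb counts, with 0.5 added to each count, does not depend on how libraries are scaled. It was -1.16, -1.48, -0.19 and -0.29 in WT replicates 1 to 4 and -0.09, 0.04, 0.16 and 0.01 in KO replicates 1 to 4. All KO ratios lay above all WT ratios, but WT replicates 3 and 4 came close to them. The mean difference was 0.81, and 1.01 without WT replicate 3; no test was made of this or the other ratios, which were chosen with the genes' values known.

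Among the PDGF ligands, 3 of 4 were called higher in KO and 0 lower, against 17.6% and 12.5% of all genes tested. Pdgfa (mean 5.39 CPM in WT and 16.7 CPM in KO, 3.08-fold, adjusted p = 1e-04), Pdgfd (2.37 and 15.0 CPM, 6.66-fold, adjusted p = 0.000436) and Pdgfb (0.799 and 2.41 CPM, 2.71-fold, adjusted p = 0.0195) passed edgeR's quasi-likelihood test without overlap between genotypes. Pdgfa-encoded chains bind the alpha receptor, and Pdgfd-encoded chains chiefly the beta receptor. Pdgfc stood at 5.24 ± 2.20 CPM in WT and 10.2 ± 3.17 CPM in KO (SD, n = 4 each) and was not called (adjusted p = 0.0739), though it was without WT replicate 3 (adjusted p = 0.0323).

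Of the smooth muscle proteins, Tagln passed the test and Acta2 did not. Acta2 encodes alpha smooth muscle actin, the standard marker of myofibroblasts and of vessel walls, and lies on chromosome 19 (34241090 to 34255590, minus strand, ENSMUSG00000035783.8). It was scarce, at 16, 29, 1 and 37 counts in WT replicates 1 to 4 and 39, 75, 66 and 17 counts in KO replicates 1 to 4. As CPM these were 1.41, 1.78, 0.142 and 1.59 in WT and 2.48, 3.45, 3.35 and 0.815 in KO. KO replicates 1, 2 and 3 stood above all WT libraries, and KO replicate 4 stood below WT replicates 1, 2 and 4.

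The exact Poisson 95% interval, which covers counting error only, was 0.00358 to 0.789 CPM for Acta2 in WT replicate 3 and 0.475 to 1.31 CPM in KO replicate 4. The log2 fold change of Acta2 was 0.93 ± 0.53 (SE), with adjusted p = 0.216 in edgeR's quasi-likelihood test. It was 0.64 (adjusted p = 0.215) without WT replicate 3 and 1.22 (adjusted p = 0.0815) without KO replicate 4. The standard error was the widest of the 10 markers.

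Tagln encodes transgelin, an actin-binding protein of smooth muscle, and lies on chromosome 9 (45929619 to 45936058, minus strand, ENSMUSG00000032085.5). It read 7.74, 8.11, 4.81 and 8.66 CPM in WT replicates 1 to 4 and 13.3, 20.2, 15.6 and 7.82 CPM in KO replicates 1 to 4. As for Acta2, KO replicate 4 was the only KO library inside the WT range. The change was 1.92-fold (log2 0.94 ± 0.29 SE, adjusted p = 0.0331 in edgeR's quasi-likelihood test).

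The call of Tagln held in 12 of the 20 alternatives. With all 8 libraries it was lost in limma-voom (adjusted p = 0.0592), with the number series as a covariate (0.0862) and at a limit of 0.01. It was also lost without WT replicate 1 (adjusted p = 0.0631), WT replicate 2 (0.0592), KO replicate 1 (0.0608), KO replicate 2 (0.109) or KO replicate 3 (0.0836), while its log2 fold change in those fits stayed between 0.72 and 0.97. Without KO replicate 4 the log2 fold change was 1.14 (adjusted p = 0.00901).

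Other genes of contraction, of the cytoskeleton and of their regulation, counted as 1 list, were called in both directions. Of 17 listed, 13 were tested, 3 were called higher and 1 lower, and the median log2 fold change was 0.04. As 17.6% of all genes tested were called higher and 12.5% lower, no direction of the list is read from its counts. Tpm1 (a tropomyosin, mean 28.7 CPM in WT and 84.0 CPM in KO, 2.93-fold, adjusted p = 3.86e-05 in edgeR's quasi-likelihood test), Vim (vimentin, 2.19-fold, adjusted p = 0.00316) and Synpo2 (an actin-bundling protein, 2.10-fold, adjusted p = 0.0377) rose. Tpm2, another tropomyosin, fell from 6.34 ± 1.26 to 2.66 ± 0.546 CPM (SD, n = 4 each; 2.40-fold lower, adjusted p = 0.00246). Without WT replicate 3 there were 3 higher and 4 lower, with a median of -0.06, where 26% of all genes were higher and 23.4% lower. Markers more restricted to smooth muscle were scarce: Actg2 was at most 0.184 CPM in WT and 0.305 CPM in KO, and Cnn1 at most 0.142 and 0.508 CPM. Myh11, smooth muscle myosin heavy chain, stood at 2.08 ± 1.10 CPM in WT and 1.53 ± 0.624 CPM in KO (SD, n = 4 each) and was not called (adjusted p = 0.434). Srf, which encodes serum response factor, stood at 9.90 ± 2.49 CPM in WT and 7.36 ± 0.852 CPM in KO (SD, n = 4 each) and was not called (adjusted p = 0.154 in edgeR's quasi-likelihood test), although it was without WT replicate 3 (log2 -0.55, adjusted p = 0.0259). Actg2, Cnn1, Myh11 and Srf were chosen for mention after their values were seen.

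Dcn, Lum and Bgn encode decorin, lumican and biglycan, small leucine-rich proteoglycans that bind collagen and, for decorin and biglycan, growth factors. Dcn and Lum rose, and Bgn separated the genotypes without passing the test. Per exon length, Dcn was the most abundant of the 10 markers in every library. Dcn lies on chromosome 10 (97479609 to 97518143, plus strand, ENSMUSG00000019929.16), and Lum (97565128 to 97572703, plus strand, ENSMUSG00000036446.5) follows it on the same strand with 46984 bases between them.

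Dcn read 136, 162, 311 and 205 CPM in WT replicates 1 to 4 and 388, 394, 425 and 346 CPM in KO replicates 1 to 4. The KO libraries were close together and all above the WT libraries, with WT replicate 3 the highest in WT. The means were 204 ± 77.2 and 388 ± 32.7 CPM (SD, n = 4 each), a 1.91-fold rise (log2 0.93 ± 0.25 SE, adjusted p = 0.0175 in edgeR's quasi-likelihood test). The call was lost without KO replicate 3, at adjusted p = 0.0505 and log2 0.89. With WT replicate 3 left out it was 1.20.

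Lum read 6.25, 8.05, 36.4 and 10.4 CPM in WT replicates 1 to 4 and 74.9, 77.3, 97.1 and 42.7 CPM in KO replicates 1 to 4. WT replicate 3 was far above the other WT libraries and near KO replicate 4, the lowest KO library, yet the groups did not overlap. Means were 15.3 ± 14.2 CPM in WT and 73.0 ± 22.5 CPM in KO (SD, n = 4 each), with a log2 fold change of 2.29 ± 0.52 (SE; adjusted p = 0.00726 in edgeR's quasi-likelihood test). Without WT replicate 3 the log2 fold change of Lum was 3.11 (adjusted p = 2.71e-06), and Lum was called under all 20 alternatives.

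Lum was also set against its neighbour Dcn within libraries. The log2 ratio of Lum to Dcn counts was -4.44, -4.33, -3.10 and -4.30 in WT replicates 1 to 4 and -2.37, -2.35, -2.13 and -3.02 in KO replicates 1 to 4. All KO ratios were above all WT ratios, although WT replicate 3 and KO replicate 4 nearly met. The mean difference was 1.57, and 1.89 without WT replicate 3. The next genes along, Kera and Epyc, which encode proteoglycans of the same family, had 0 counts in WT and 2 counts each in KO over all libraries.

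Bgn lies on chromosome X (73483602 to 73495933, plus strand, ENSMUSG00000031375.17) and read 55.0, 58.8, 17.3 and 55.2 CPM in WT replicates 1 to 4. KO replicates 1 to 4 gave 70.3, 100.5, 105 and 70.1 CPM. All KO libraries were above all WT libraries, and WT replicate 3 was far below the other WT libraries. For Bgn the log2 fold change was 0.89 ± 0.34 (SE; adjusted p = 0.0717 in edgeR's quasi-likelihood test). It was smaller, 0.60, without WT replicate 3 and was then called (adjusted p = 0.00949). DESeq2 also called Bgn (adjusted p = 0.0407), and 8 of the 20 alternatives did in all.

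Other small leucine-rich proteoglycans gave no called rise. Of 12 listed, 7 were tested, 0 were called higher in edgeR's quasi-likelihood test and 1 lower, with a median log2 fold change of 0.28. The shares over all genes tested were 17.6% higher and 12.5% lower. Chad, chondroadherin, fell from 3.07 ± 1.91 to 1.07 ± 0.261 CPM (SD, n = 4 each; adjusted p = 0.0343), and Podn, podocan, read 2.47 ± 0.948 and 4.22 ± 0.300 CPM (adjusted p = 0.0538). With totals-only scaling the call of Chad was lost (adjusted p = 0.113) and 2 were called higher, as were 4804 of all genes. Leaving out WT replicate 3 gave 2 called higher and 1 lower, where 26% of all genes tested were higher and 23.4% lower.

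**Figure D2:**
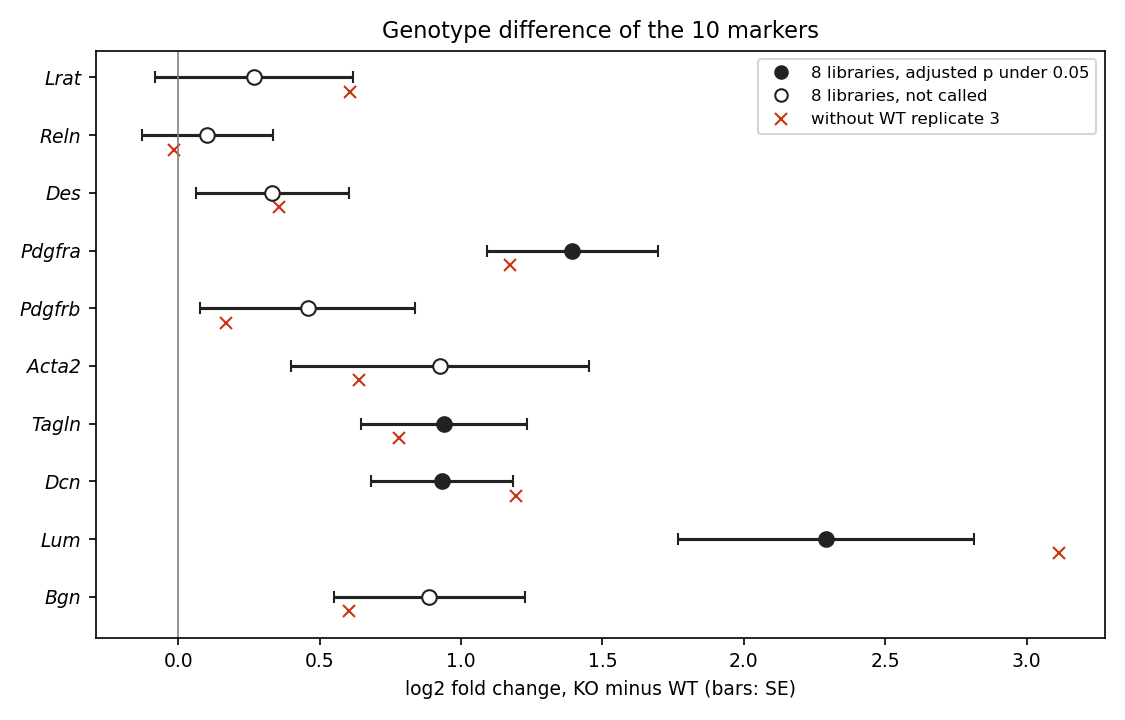
Log2 fold change, KO minus WT, of each marker (x axis) with its SE from the fit on 8 libraries; filled circles were called at an adjusted p under 0.05, and crosses give the value without WT replicate 3. Lum moved from 2.29 to 3.11 and Reln from 0.10 to -0.016 when that library was left out.

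The comparison named for these markers sets the activated group against the quiescent group. The mean log2 fold change was 1.02 over the 8 activated markers and 0.19 over Lrat and Reln, a difference of 0.83. Within each library, the mean log2 CPM of the 8 minus that of the 2 was -0.95, -1.60, -2.63 and -2.09 in WT replicates 1 to 4 and -0.98, -0.89, -0.68 and -1.36 in KO replicates 1 to 4. WT replicate 1 lay inside the KO range, and the other WT libraries lay below it. The SD was 0.71 in WT and 0.29 in KO, so the difference was about as large as the WT spread. It stayed between 0.68 and 1.02 over the alternatives and was 0.71 without WT replicate 3.

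Single ratios depended on which quiescent marker was used. Against Reln, all 8 activated markers had a higher mean ratio in KO, and all 8 still did without WT replicate 3. Against Lrat, 7 of 8 did, but only 3 of 8 without WT replicate 3. Genotypes did not overlap for 1 of 8 ratios to each, Lum to Lrat and Pdgfra to Reln. Of 5 ratios between markers of like role, 2 did not overlap (Pdgfra to Pdgfrb, and Lum to Dcn), and Reln to Lrat, Bgn to Dcn and Acta2 to Tagln did.

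**Figure D3:**
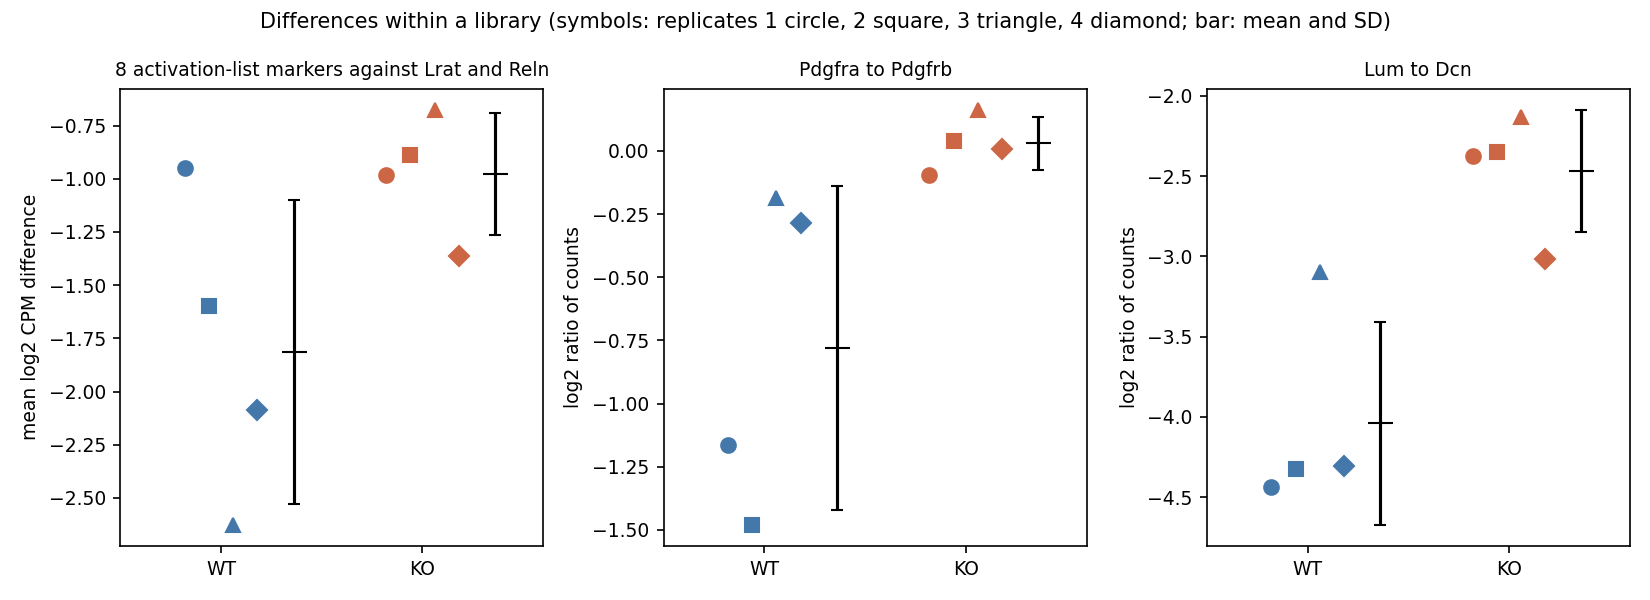
Differences within a library for the 4 WT and 4 KO libraries, with mean and SD: the mean log2 CPM of the 8 activated markers minus that of Lrat and Reln, the log2 ratio of Pdgfra to Pdgfrb counts, and the log2 ratio of Lum to Dcn counts. WT replicate 1 at -0.95 overlaps KO in the first panel, and the genotypes do not overlap in the other panels.

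Other markers of quiescent stellate cells were called in both directions, as were genes at large. Of 18 listed, 17 were tested, 5 were called higher and 2 lower, and the median log2 fold change was 0.13. Over all genes tested, 17.6% were called higher and 12.5% lower, so the split is not read as particular to these markers. Cygb, the globin cytoglobin, rose 2.72-fold (adjusted p = 0.00368 in edgeR's quasi-likelihood test), and Adamtsl2, a matrix protein of the ADAMTS-like family, 4.36-fold (adjusted p = 0.00475). Bambi, a decoy receptor for transforming growth factor beta, and Tcf21, a transcription factor of mesenchymal cells, also rose, with log2 fold changes of 1.40 (adjusted p = 0.0160) and 1.03 (adjusted p = 0.0145). Angptl6, an angiopoietin-like secreted protein, fell from 28.2 ± 11.3 to 13.0 ± 1.13 CPM (SD, n = 4 each; adjusted p = 0.00908). Vipr1, a receptor for vasoactive intestinal peptide, fell by 0.57 on the log2 scale (adjusted p = 0.0397). The calls of Angptl6 (adjusted p = 0.0937) and Vipr1 (0.656) were lost when libraries were scaled by their totals only. Leaving out WT replicate 3 gave 7 of the 17 tested called higher and 3 lower, with a median of 0.26. In that fit 26% of all genes tested were higher and 23.4% lower. Bambi, Tcf21 and Vipr1 were named after their values were seen.

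Lrat's partners in retinoid handling were also called both ways, with 3 of 13 tested higher, 3 lower and a median log2 fold change of 0.11. Against this stand shares of 17.6% higher and 12.5% lower over all genes tested, and no direction of the list is read from its counts. Aldh1a2, which makes retinoic acid, was higher in KO (1.76 ± 0.367 CPM against 0.198 ± 0.147 CPM, SD, n = 4 each; adjusted p = 0.00061 in edgeR's quasi-likelihood test). Its WT libraries stood at or below 3 counts except replicate 4. Rarb, a retinoic acid receptor whose gene responds to retinoic acid, rose by 1.30 on the log2 scale (adjusted p = 0.00178). Rbp4, the plasma retinol carrier made mainly by hepatocytes, fell from 2552 ± 253 to 1256 ± 129 CPM (SD, n = 4 each; adjusted p = 0.00169). Dgat2, an acyltransferase of triglyceride synthesis, fell 2.13-fold (adjusted p = 0.00135), and Rdh10, a retinol dehydrogenase, fell by 0.73 on the log2 scale (adjusted p = 0.00487). With totals-only scaling the call of Rdh10 was lost (adjusted p = 0.185) and 5 genes of the list were called higher, as were 4804 of all genes. Leaving out WT replicate 3 gave 4 called higher and 3 lower, with a median of 0.21, where 26% of all genes were higher and 23.4% lower. Rarb and Rdh10 were named after their values were seen.

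Of the genes that act with reelin, the adaptor Dab1 was at 0, 0.0614, 0 and 0.172 CPM in WT replicates 1 to 4, under 3 counts except in replicate 4, and at 1.65, 2.16, 1.47 and 0.911 CPM in KO replicates 1 to 4. All KO values of Dab1 were higher (adjusted p = 0.000428 in edgeR's quasi-likelihood test). The reelin receptor Vldlr was not called (log2 0.16 ± 0.46 SE, adjusted p = 0.828), and Lrp8, at most 0.459 CPM, was not tested.

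Genes of scar and myofibroblasts (collagens, cross-linking enzymes and other matrix proteins, with Timp1, Tgfb1, Ctgf and S100a6) and of portal fibroblasts were mostly called higher. Of 15 tested on the scar and myofibroblast list, 12 were called higher and 1 lower, against 17.6% and 12.5% of all genes tested. The list's median log2 fold change was 1.69. Col3a1, a fibrillar collagen chain, rose from 27.2 ± 9.06 to 120.9 ± 34.5 CPM (SD, n = 4 each; adjusted p = 0.000341 in edgeR's quasi-likelihood test). Lox and Loxl1, which cross-link collagen and elastin, rose with log2 fold changes of 3.92 (adjusted p = 0.000484) and 2.35 (adjusted p = 0.000563), and S100a6, a calcium-binding protein, with 2.12 (adjusted p = 0.000334). Lox stood at 0.528, 0.184, 0 and 0.129 CPM in WT replicates 1 to 4, around the level of 3 counts, so the size of its rise is uncertain. In KO it ran from 1.53 to 4.55 CPM. Fn1, fibronectin, which hepatocytes also make in quantity, fell from 1034 ± 450 to 484 ± 60.9 CPM (SD, n = 4 each; adjusted p = 0.0325), a call lost with totals-only scaling (adjusted p = 0.164), and was named after its value was seen.

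Portal fibroblast markers were called higher for 7 of 8 tested and lower for 0, against 17.6% and 12.5% of all genes tested. Their median log2 fold change was 2.09. Cd34 (2.66, adjusted p = 7.71e-05 in edgeR's quasi-likelihood test), Dpt (2.62, adjusted p = 0.000112), Eln (3.07, adjusted p = 0.000368) and Entpd2 (1.57, adjusted p = 0.00143) had the lowest p-values. The whole list summed to 30.7 to 61.1 CPM in WT and to 105 to 204 CPM in KO. Clec3b, Gli1 and Pi16, also on that list, did not reach the filter. Portal fibroblasts also make Dcn, Lum, Bgn and Pdgfra, and the part of these cells in their levels was not tested.

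Markers of other cell types were counted in the same way, where 17.6% of all genes tested were called higher in KO and 12.5% lower. With all 8 libraries, the macrophage, endothelial, mesothelial, erythroid and adipocyte counts were near or below those shares. No change of those cell types is read from them. All 7 cholangiocyte markers rose, their sum running from 36.02 to 79.5 CPM in WT and from 420 to 1022 CPM in KO. Macrophage markers had 1 of 8 called higher (sum 129 to 426 CPM in WT and 298 to 738 CPM in KO), lymphocyte markers 2 of 5 tested higher (2.62 to 4.14 and 7.49 to 11.6 CPM), and erythroid markers 0 of 4 (292 to 728.5 and 501 to 1368 CPM). Endothelial markers had 1 of 8 called lower (136 to 242 and 82.3 to 163 CPM), and hepatocyte markers 4 of 8 lower (67490 to 123500 and 44760 to 64400 CPM). No listed marker of a cell type was at 0 in all 8 libraries. Mesothelial markers had 1 of 6 called higher (11.4 to 16.6 and 18.9 to 24.2 CPM), which was Gpm6a. Of 6 skeletal muscle markers, Mylpf alone was tested and it rose (log2 0.79), the list summing to 0.922 to 1.27 CPM in WT and 2.25 to 2.997 CPM in KO, and 0 of 2 adipocyte markers tested were called (13.1 to 20.0 and 10.2 to 24.8 CPM). Without WT replicate 3, 4 macrophage, 3 lymphocyte and 1 erythroid marker were called higher and 5 endothelial and 7 hepatocyte markers lower. The shares over all genes tested also rose there, to 26% higher and 23.4% lower. Scaling all 8 libraries by totals only gave 5 macrophage, 4 lymphocyte and 2 erythroid markers higher and 0 endothelial and 1 hepatocyte marker lower. With that scaling 4804 of all genes were called higher and 642 lower. The part of any of these cells in the marker changes was not tested.

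**Figure D4:**
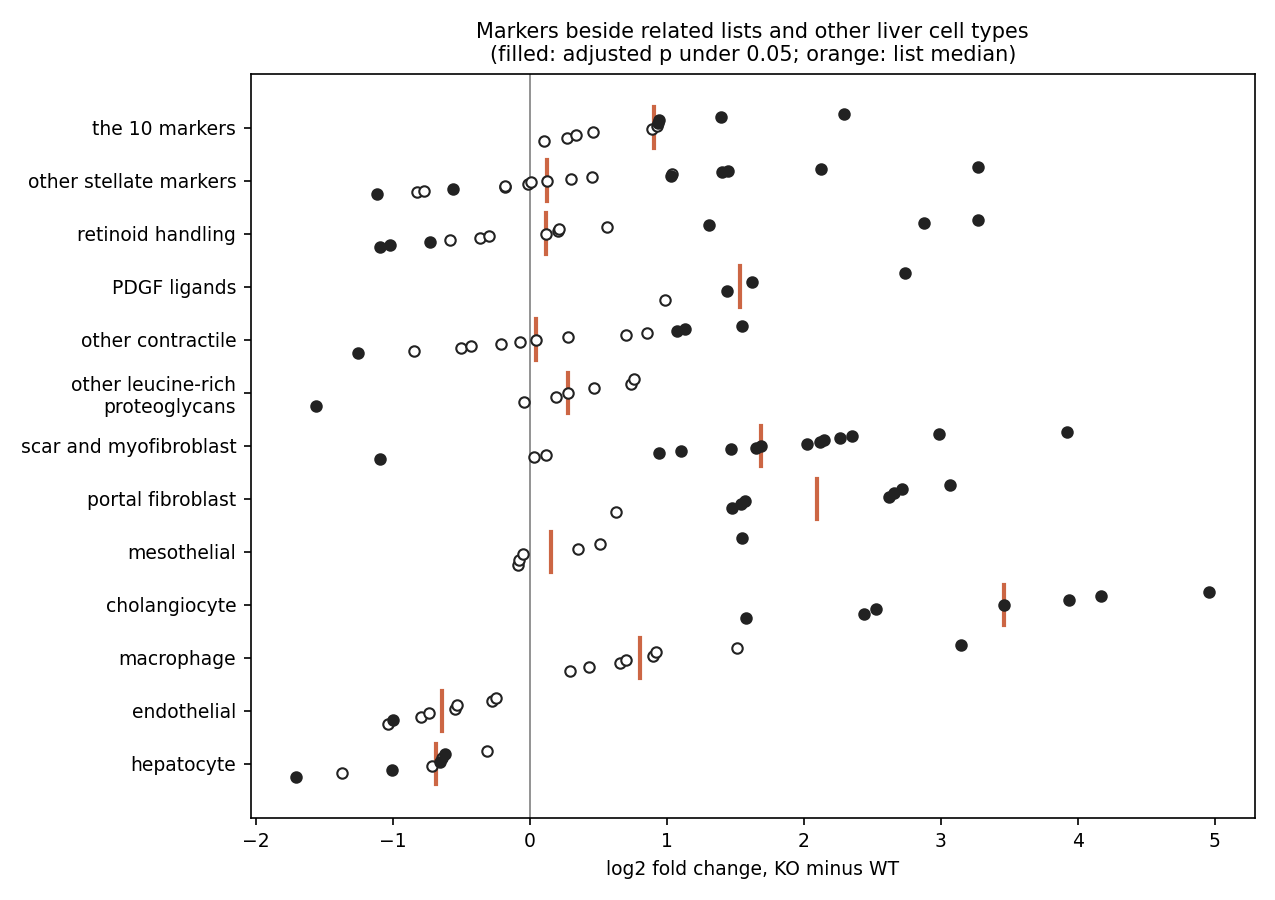
Log2 fold change, KO minus WT (x axis), of every tested gene in the 10 markers and in related and cell type lists (rows); filled points were called at an adjusted p under 0.05 and the orange line is the list's median. The 10 markers, with median 0.91, lie between the other stellate markers (0.13) and the portal fibroblast (2.09) and cholangiocyte (3.46) lists.

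Per length, Dcn was highest and Reln and Pdgfrb kept their places in both genotypes, and the other markers changed places. As CPM per kilobase of exon, the WT means were 34.9 for Dcn, 7.63 for Bgn, 6.24 for Lum, 4.77 for Lrat, 3.69 for Tagln, 2.17 for Reln, 1.43 for Pdgfrb, 0.866 for Des, 0.560 for Acta2 and 0.414 for Pdgfra. In WT, Dcn and Bgn were the only neighbours in that order whose ranges did not overlap. In KO the means were 66.5 for Dcn, 29.8 for Lum, 14.2 for Bgn, 7.16 for Tagln, 5.71 for Lrat, 2.34 for Reln, 2.001 for Pdgfrb, 1.15 for Acta2, 1.12 for Pdgfra and 1.07 for Des. Lum and Bgn changed places, as did Tagln and Lrat, and Des went from above Acta2 and Pdgfra to below both. Lum was above Bgn in 4 of 4 KO libraries, narrowly without overlap (lowest Lum 17.5, highest Bgn 17.2), where Bgn had been above Lum in 3 of 4 WT libraries. The order depends on the length used, which merges all annotated exons of a gene (6099 bases for Bgn and 2448 for Lum). As CPM without a length, the KO mean was 86.4 for Bgn and 73.0 for Lum. In KO, the ranges of Bgn and Tagln, of Lrat and Reln, and of Pdgfrb and Acta2 also did not overlap, nor did those of Dcn and Lum. Neighbours not named here overlapped.

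WT replicate 3 and KO replicate 4 sat at the edge of their groups for most markers. Of the WT libraries, replicate 3 was the lowest for 5 markers (Pdgfra, Pdgfrb, Acta2, Tagln and Bgn) and the highest for 3 (Lrat, Dcn and Lum). Those 3 have the transcripts of lowest GC content among the markers, 42.0%, 37.4% and 41.9%. Des, whose transcript has the highest, 56.5%, did not follow that order and was 0.13 (log2) above its mean in the other WT libraries. Over all genes tested, the median log2 difference of WT replicate 3 from the other WT libraries was 0.69, -0.04, -0.33 and -0.52 in 4 equal classes from the lowest to the highest GC content. Of the KO libraries, replicate 4 was the lowest for 8 of the 10 markers, and its median difference from the other KO libraries lay between -0.02 and 0.00 in all 4 GC classes. KO replicate 4 was also the lowest KO library in the cholangiocyte sum (420 against 952 to 1022 CPM) and in the portal fibroblast sum (105 against 158 to 204 CPM), and the highest in the macrophage sum (738 CPM). With an offset for transcript GC content and exon length fitted on all 8 libraries, an alternative chosen after seeing the data, 5 markers were called higher: Lum (log2 2.50), Pdgfra (1.43), Dcn (0.99), Bgn (0.95) and Tagln (0.94). Bgn passed there with adjusted p = 0.0123 in edgeR's quasi-likelihood test. Without KO replicate 4, the same 4 markers were called as with all libraries.

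**Figure D5:**
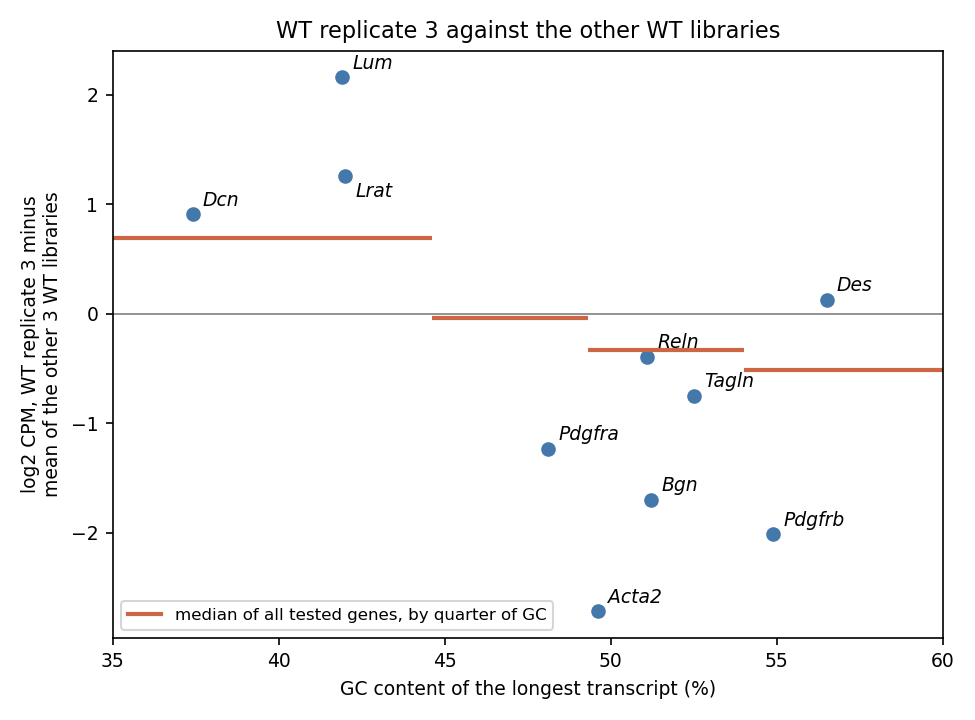
Log2 CPM of each marker in WT replicate 3 minus its mean in the other 3 WT libraries (y axis) against the GC content of its longest transcript in percent (x axis); orange lines are the medians of all tested genes in 4 equal classes of GC content, the outer classes running past the axis. Dcn, Lrat and Lum are above 0, as is Des (0.13), the marker of highest GC content, and Acta2, Pdgfrb and Bgn are the farthest below.

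The numbers in the library names were cut into 3 series at limits set by choice, and the labels do not call these batches. Series A held WT replicate 1 and KO replicates 1 and 2, B replicate 3 of each, and C WT replicates 2 and 4 and KO replicate 4. By number, WT replicate 1 is closer to the libraries of B than to the KO libraries of A, so A is a loose grouping. Within A, B and C, the log2 differences of Lum (3.58, 1.41 and 2.21), Pdgfra (1.44, 2.57 and 0.74), Dcn (1.52, 0.45 and 0.92) and Bgn (0.61, 2.59 and 0.30) were all above 0. Tagln gave 1.07, 1.68 and -0.10, Acta2 0.99, 3.74 and -0.95, and Pdgfrb 0.32, 2.23 and -0.14, each below 0 in the series whose KO library is replicate 4. Des gave -0.23, 0.62 and 0.43, Lrat 1.65, -0.40 and 0.14, and Reln 0.64, 0.32 and -0.24. With the series as a covariate, Tagln was no longer called (adjusted p = 0.0862 in edgeR's quasi-likelihood test).

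Some counts may hold reads of overlapping genes. In the GENCODE M21 annotation, exons of Tagln overlap Pcsk7 and the antisense gene Gm48529, and exons of Reln and Des each overlap an antisense gene. Exons of Pdgfra overlap Gm42802 and Gm42803 on the opposite strand and Mir7025 on its own strand. No label says whether counting used the strand, so reads in those stretches cannot be assigned. For Mir7025 the strand would not separate them. Lrat, Pdgfrb, Acta2, Dcn, Lum and Bgn have no exon overlap with another annotated gene.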

How the data were processed

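The authors deposited raw counts for each gene: every value is whole, and totals differ between libraries. The submitters' processing notes name FastQC, cutadapt, STAR and mm10, with no version; the counting program and its strand setting are not given there. Coordinates, exon lengths and GC content came from GENCODE M21, which holds 99.9% of the identifiers apart from version numbers (that of Acta2 differs).

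The markers, the gene lists and the tests were chosen with earlier results of these data known. Named genes are the 10 markers, Atp7b, up to 4 genes of lowest p in each list, and all PDGF ligands and reelin genes; 1 listed gene is counted in its lists but not reported here.

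Counts were filtered with filterByExpr (15811 genes kept), scaled with TMM and compared with edgeR 4.0.16 (quasi-likelihood, limma 3.58.1, R 4.3.3). Genotype was the only term, with Benjamini-Hochberg adjustment across the whole table, and calls were made below 0.05. The SE is the log2 fold change divided by the square root of F. Replicate numbers only name libraries. The fit was tested on simulated data. Alternatives were DESeq2 1.42.0, limma-voom, other scalings and filters, the number series, and each library left out. The offset for GC content and length, and the list counts without WT replicate 3 or under other scalings, were added after seeing the data.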

Additional observations from a re-analysis of the deposited data

Results flagged for a closer look

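Values of WT replicate 3 stood far from the other WT libraries for 2 markers. Lum read 36.4 CPM there, against 6.25 to 10.4 CPM in WT replicates 1, 2 and 4. Bgn read 17.3 CPM there, against 55.0 to 58.8 CPM in WT replicates 1, 2 and 4. In both, the gap to the nearest library, as a share of the group's range, passed Dixon's limit for 4 samples. The rule was applied to 20 groups (10 markers in each genotype), and chance alone flags about 1 in 20. Without that library the log2 fold change of Lum was 3.11 in place of 2.29 and that of Bgn 0.60 in place of 0.89.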

How the results depend on the processing

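Of the 10 markers, Pdgfra and Lum were called higher under all 20 alternatives, Dcn under 18, Tagln under 12 and Bgn under 8; Lrat, Reln, Des, Pdgfrb and Acta2 were called under 0. Leaving out 1 library gave 2 to 5 markers called higher, with 2 without KO replicate 3 (Pdgfra and Lum), and an adjusted p under 0.01 gave 2. With 1 library left out, the log2 fold change of Lrat ran from -0.011 (without WT replicate 1) to 0.61 and that of Reln from -0.034 (without WT replicate 1) to 0.37, and Reln was at -0.0065 with the GC and length offset without WT replicate 3. Scaling by library totals only moved the all-gene median (log2) from -0.05 to 0.37, and all genes called went from 2775 higher and 1971 lower to 4804 and 642. Totals without the 10 most abundant genes gave 4485 and 743, no filter gave 4244 higher, and an adjusted p under 0.01 gave 912 lower. Leaving out 1 library gave 2325 to 4267 higher and 1315 to 3837 lower (the highest of both without WT replicate 3), and that with the GC and length offset 4448 and 4057. With library totals only, the calls of Angptl6 (-0.74), Vipr1 (-0.13), Rdh10 (-0.29), Chad (-1.18) and Fn1 (-0.73) as lower were lost, on the log2 scale, and Pdgfc was called higher. No paired analysis was possible because replicate numbers follow accession order and the labels pair no libraries. Acta2 was counted at 1 to 75 reads per library.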
